A study of Mus musculus with 6 samples.

Results

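The CYP4 fatty acid hydroxylases are 9 cytochrome P450 genes, picked by their names in a gene table of 33495 rows, of which 19594 carried counts. They were Cyp4a10, Cyp4a12a, Cyp4a12b, Cyp4a14, Cyp4a31, Cyp4f13, Cyp4f14, Cyp4f15 and Cyp4v3. All 9 were found, all 9 carried counts in every library, and all 9 were among the 11794 genes abundant enough to be tested.

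RNA came from the livers of 3 SHP-/- and 3 WT mice, all male, on the C57BL6 background and 2 months old, and no treatment, diet or hour of collection is given. SHP, the small heterodimer partner encoded by Nr0b2, is an orphan nuclear receptor that cannot bind DNA itself and dampens the activity of its partner receptors. Which part of Nr0b2 the SHP-/- allele lacks is not given, and the tissue is labelled liver, so any of its cell types may contribute. Capped RNA was pulled out of total RNA on an EIF4E variant that binds the cap tightly, and was sequenced as paired reads of 36 cycles, with 3 barcoded samples in a lane. The labels do not name the samples of each lane, so effects of lane and genotype cannot be told apart.

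CYP4 enzymes sit in the membrane of the endoplasmic reticulum and put a hydroxyl group on the far (omega) carbon of fatty acids and eicosanoids. The alcohol is then oxidised to a dicarboxylic acid, which peroxisomes shorten. In rodent liver, Cyp4a10 and Cyp4a14 are textbook targets of the fatty acid receptor PPARA, while Cyp4a12a is higher in males than in females. Cyp4f enzymes are best known for inactivating leukotrienes.

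Several Cyp4a genes are close copies, which bears on their values. In the mm9 build, the 5 Cyp4a members lie in a cluster on chromosome 4 between 114971651 and 115251618. Cyp4a12a is at chr4:114971651-115005420 and Cyp4a12b at chr4:115084229-115111639, both on the plus strand. Cyp4a14 is at chr4:115158805-115168747 on the minus strand. Cyp4a10 is at chr4:115190869-115206254 and Cyp4a31 at chr4:115236254-115251618, both on the plus strand. The cluster lies 17.9 to 18.1 Mb from Nr0b2, on the same chromosome. Whether the DNA of that region is otherwise the same in SHP-/- and WT mice was not examined. The 3 Cyp4f members lie on chromosome 17, with Cyp4f15 at chr17:32822624-32840296 on the plus strand. Cyp4f14 is at chr17:33042016-33054023 and Cyp4f13 at chr17:33061633-33084347, both on the minus strand. Cyp4v3 is at chr8:46391155-46418570 on the minus strand.

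A stretch of 72 coding bases is shown to let the near copies be compared. It is taken from the GENCODE M21 transcripts and lies on chromosome 4 of GRCm38, a build other than that of the counts. Capitals mark the bases that differ within the pair Cyp4a12a and Cyp4a12b, and, separately, within the trio Cyp4a10, Cyp4a31 and Cyp4a32 (a CYP4 gene next to the members). Cyp4a14 is printed for comparison, with no capitals. In GRCm38 the stretch is chr4:115301934-115302005 in Cyp4a12a, chr4:115414493-115414564 in Cyp4a12b and chr4:115521091-115521162 in Cyp4a10. It is chr4:115566503-115566574 in Cyp4a31 and chr4:115606668-115606739 in Cyp4a32, all of these on the plus strand. In Cyp4a14 it is chr4:115493608-115493679 on the minus strand.
Cyp4a12a: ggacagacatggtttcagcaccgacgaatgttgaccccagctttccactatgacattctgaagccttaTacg
Cyp4a12b: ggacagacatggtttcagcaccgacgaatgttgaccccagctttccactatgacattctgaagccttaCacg
Cyp4a10: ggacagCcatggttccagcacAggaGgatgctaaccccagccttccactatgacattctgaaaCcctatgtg
Cyp4a31: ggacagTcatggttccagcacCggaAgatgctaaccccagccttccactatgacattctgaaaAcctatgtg
Cyp4a32: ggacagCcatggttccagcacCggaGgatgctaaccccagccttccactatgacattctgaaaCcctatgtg
Cyp4a14: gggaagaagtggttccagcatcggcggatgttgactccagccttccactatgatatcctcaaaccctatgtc

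The pair Cyp4a12a and Cyp4a12b differed at 1 position of this stretch and the trio at 4. Over the whole coding sequence, Cyp4a12a and Cyp4a12b were identical at 98.5% of the 1527 aligned bases. Cyp4a10 was 97.2% identical to Cyp4a32 and 96.6% to Cyp4a31, but 80.3% identical to Cyp4a12a and 75.7% to Cyp4a14. Of all 36-base windows along the Cyp4a12a transcript, 58.4% also occur in Cyp4a12b, so a single read from there does not tell the copies apart. How often the other read of a pair would do so was not examined. For Cyp4a10 the share that also occurs in another gene was 40.7%, for Cyp4a31 it was 29.7% and for Cyp4a32 it was 60.6%. Cyp4a14 shared 1.06% of its windows, and the 3 Cyp4f members 5.81% to 6.46%. No source used here says how reads with more than 1 match were counted. The values of Cyp4a12a, Cyp4a12b, Cyp4a10, Cyp4a31 and Cyp4a32 taken singly are therefore uncertain, and sums over the copies are given beside them.

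Library totals were 4494353 to 7225842 counts in SHP-/- and 4982530 to 6155064 counts in WT, and SHP-/- 3 was the deepest. Mitochondrially encoded genes took 5.66% to 7.10% of counts in SHP-/- and 10.2% to 10.3% in WT. Nr0b2 had 29, 36 and 77 counts in SHP-/- against 104, 59 and 85 counts in WT. Scaled to library size it was lower in SHP-/- and the groups did not overlap (log2 difference −0.81 ± 0.25 SE, adjusted p = 0.0443). That call was lost under 8 of 15 other settings, among them leaving out SHP-/- 1, SHP-/- 2 or any WT library (adjusted p up to 0.123). Of 6 hepatocyte markers 1 was lower, and their summed level was 73000 to 81600 counts per 1000000 (CPM) in SHP-/- and 65500 to 86300 CPM in WT. Of 10 Kupffer cell and macrophage markers 3 were higher (summed 402 to 617 CPM in SHP-/- and 391 to 457 CPM in WT). Of 7 endothelial markers 1 was higher (315 to 480 CPM in SHP-/- and 469 to 507 CPM in WT). That one was Lyve1 (log2 difference 0.82), while the median of the 7 was −0.23. Across all genes tested, 7.58% were higher and 6.94% lower. No tested stellate, cholangiocyte or erythroid marker passed the threshold. Of 5 markers of kidney proximal tubule, where Cyp4a genes are also expressed, Slc34a1, Umod, Kap and Slc22a6 carried no counts. The other, Lrp2, rose, with 30, 24 and 57 counts (6.85, 4.71 and 7.65 CPM) in SHP-/- and 5, 4 and 13 counts (0.853, 0.831 and 2.06 CPM) in WT. The groups did not overlap (log2 difference 2.36 ± 0.49, adjusted p = 0.00728). The part of these cell types in the results was not tested.

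Across the 9 members, Cyp4a12a rose in SHP-/- livers, while Cyp4a10, Cyp4a14, Cyp4a31 and Cyp4v3 fell. The other 4, Cyp4a12b and the 3 Cyp4f genes, did not pass the threshold, an adjusted p under 0.05 in a limma model over all genes tested. Of all genes tested, 14.5% passed it, 7.58% as higher and 6.94% as lower in SHP-/-. The groups did not overlap for 5 of the 9 members, and for 35.1% of all genes tested. The median log2 difference of the members, SHP-/- minus WT, was −0.19, against −0.01 for all genes tested. Without SHP-/- 3 or without WT 3, 2 members passed as higher, the second being Cyp4a12b. The number passing as lower was 2 without SHP-/- 1 or WT 2 and 1 without SHP-/- 2 or WT 3, where Cyp4a10 alone remained, and 2 under robust variance moderation. In bulk liver RNA, fewer expressing cells and less RNA per cell cannot be told apart.

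**Figure D1:**
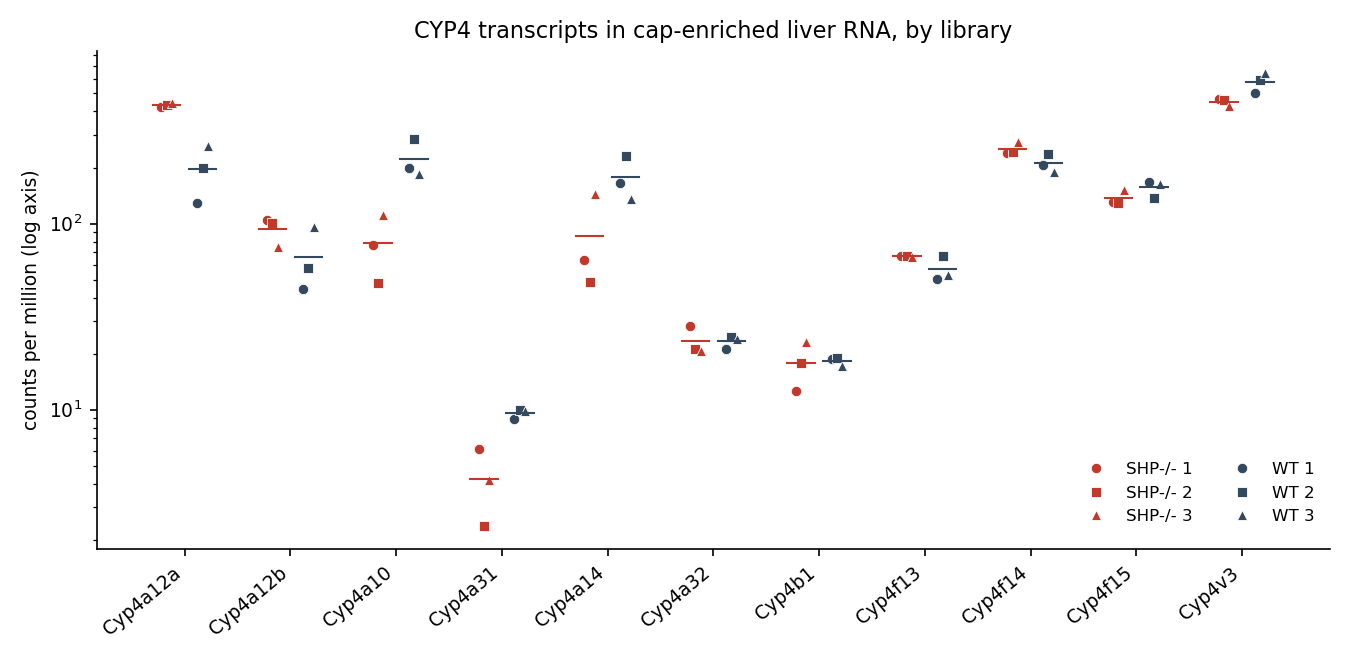
Level of each CYP4 gene in CPM on a log axis, SHP-/- libraries in red left of WT libraries in blue, 1 point per library and a line at the group mean (n = 3). Cyp4a12a lies at 421 to 444 CPM in SHP-/- and 129 to 260 CPM in WT, while Cyp4a10 lies at 47.9 to 111 CPM in SHP-/- and 184 to 284 CPM in WT.

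Cyp4a12a, the main omega-hydroxylase of arachidonic acid in the male mouse, had 421, 436 and 444 CPM in SHP-/- livers, against 129, 199 and 260 CPM in WT livers. Every SHP-/- library was above every WT library, and the SHP-/- libraries lay close together while WT 3 was highest and WT 1 lowest of the WT libraries. The means were 434 ± 11.9 CPM in SHP-/- and 196 ± 65.5 CPM in WT (SD, n = 3 each), a log2 difference of 1.20 ± 0.18 (SE, adjusted p = 0.00112). Cyp4a12a passed under all 15 other settings, with log2 differences of 0.93 to 1.44.

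Its near copy Cyp4a12b had 105, 101 and 75.2 CPM in SHP-/- livers and 44.2, 57.6 and 95.3 CPM in WT livers. The groups overlapped, since WT 3 was above SHP-/- 3. The log2 difference was 0.55 ± 0.22 with a 95% interval of 0.08 to 1.03 (adjusted p = 0.109). It was 0.72 without SHP-/- 3 (adjusted p = 0.0476) and 0.88 without WT 3 (adjusted p = 0.0227), which both passed. It was 0.47 without SHP-/- 1 (adjusted p = 0.236), 0.50 without SHP-/- 2 (0.2), 0.29 without WT 1 (0.365) and 0.50 without WT 2 (0.241), which did not. Summed, the copies had 526, 537 and 520 CPM in SHP-/- and 174, 257 and 356 CPM in WT. This sum does not depend on how reads were split between them, provided each read was counted once, which no source used here states. The log2 difference of the sum was 1.07 ± 0.18 (adjusted p = 0.00251).

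Cyp4a10, a lauric acid hydroxylase and PPARA target, had 76.9, 47.9 and 111 CPM in SHP-/- livers and 198, 284 and 184 CPM in WT livers. Every SHP-/- library was below every WT library. The means were 78.7 ± 31.7 CPM in SHP-/- and 222 ± 54.3 CPM in WT, a log2 difference of −1.52 ± 0.24 with a 95% interval of −2.03 to −1.02 (adjusted p = 0.00123). Leaving out any 1 library kept the call, with log2 differences of −1.85 to −1.21, and it was lost under robust variance moderation (adjusted p = 0.0562).

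Cyp4a31, the near copy of Cyp4a10 at chr4:115236254-115251618, was the least abundant member, with 27, 12 and 31 counts in SHP-/- livers and 52, 48 and 62 counts in WT livers. That is 6.16, 2.36 and 4.16 CPM in SHP-/- and 8.87, 9.97 and 9.85 CPM in WT, and the groups did not overlap. The log2 difference was −1.27 ± 0.32 (adjusted p = 0.018), a call lost without SHP-/- 2 (adjusted p = 0.0675) or WT 3 (adjusted p = 0.0695). Cyp4a32, which shares more of its sequence with Cyp4a10 than Cyp4a31 does, stood at 23.4 ± 4.26 CPM in SHP-/- and 23.2 ± 1.81 CPM in WT (log2 difference −0.02 ± 0.17, adjusted p = 0.942). The single value of Cyp4a32 is uncertain too, as 60.6% of its 36-base windows also occur in another gene. Cyp4a10, Cyp4a31 and Cyp4a32 summed to 111, 71.5 and 136 CPM in SHP-/- and 228, 319 and 218 CPM in WT. The log2 difference of that sum was −1.28 ± 0.20 (adjusted p = 0.00127), and it passed under all 15 other settings.

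Cyp4a14, also a PPARA target, had 63.5, 48.5 and 144 CPM in SHP-/- livers and 166, 231 and 136 CPM in WT livers. Here the groups overlapped, as SHP-/- 3 was above WT 3. The log2 difference was −1.13 ± 0.30 with a 95% interval of −1.77 to −0.49 (adjusted p = 0.0223). The call was lost without SHP-/- 1 (adjusted p = 0.0649), SHP-/- 2 (0.0675), WT 2 (0.0939) or WT 3 (0.0524), and under robust variance moderation (0.226). Since 98.9% of its 36-base windows are its own, little of this value can come from the other Cyp4a genes. Library SHP-/- 3 was the highest SHP-/- library for both Cyp4a10 and Cyp4a14, and was the middle one for Cyp4a31.

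**Figure D2:**
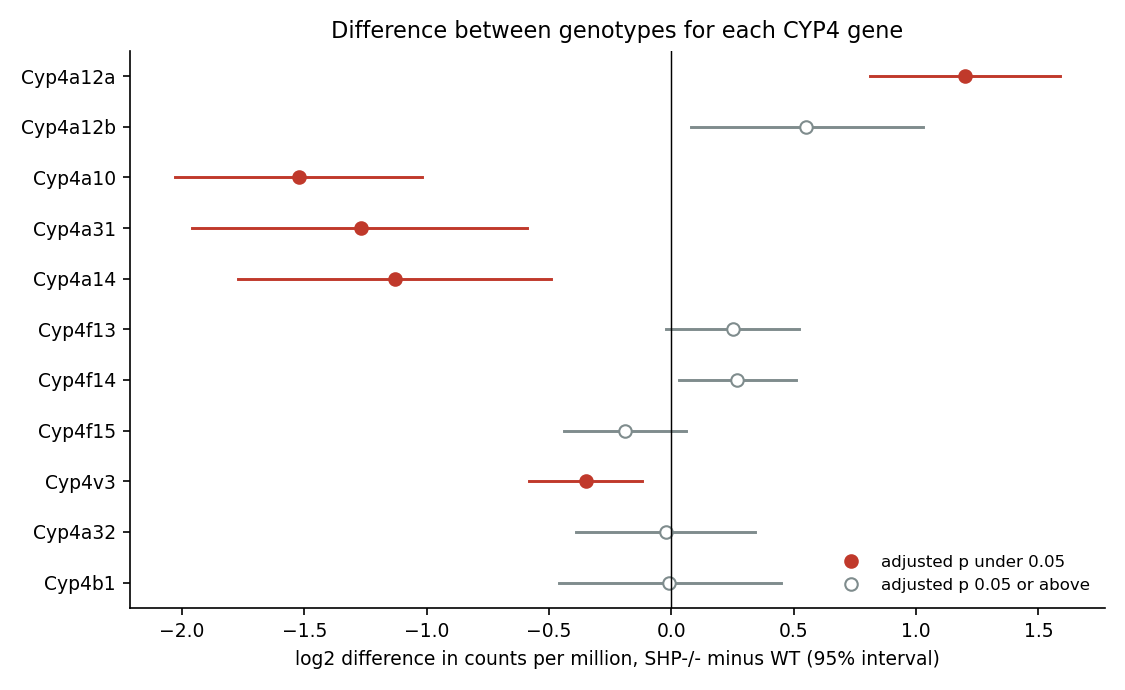
Log2 difference in CPM, SHP-/- minus WT, for each CYP4 gene, with its 95% interval from the limma model, filled where the adjusted p was under 0.05. Cyp4a12a stands right of 0 at 1.20, and Cyp4a10, Cyp4a31, Cyp4a14 and Cyp4v3 stand left of it at −1.52, −1.27, −1.13 and −0.35.

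The Cyp4a members moved in opposite directions, and the groups overlapped in their total. Summed over the 5 genes, it was 673, 636 and 779 CPM in SHP-/- livers and 546, 782 and 686 CPM in WT livers. Cyp4a12a and Cyp4a12b supplied 78.2%, 84.5% and 66.7% of these counts in SHP-/- and 31.8%, 32.8% and 51.9% in WT. The counts of Cyp4a12a were 5.47, 9.10 and 4.00 times those of Cyp4a10 in SHP-/- and 0.652, 0.70 and 1.41 times in WT. Both measures compare genes within a library, so library scaling does not enter them. They were chosen after the values of the members were seen and are given without a test. In both, SHP-/- 3 was the SHP-/- library nearest to WT and WT 3 the WT library nearest to SHP-/-.

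**Figure D3:**
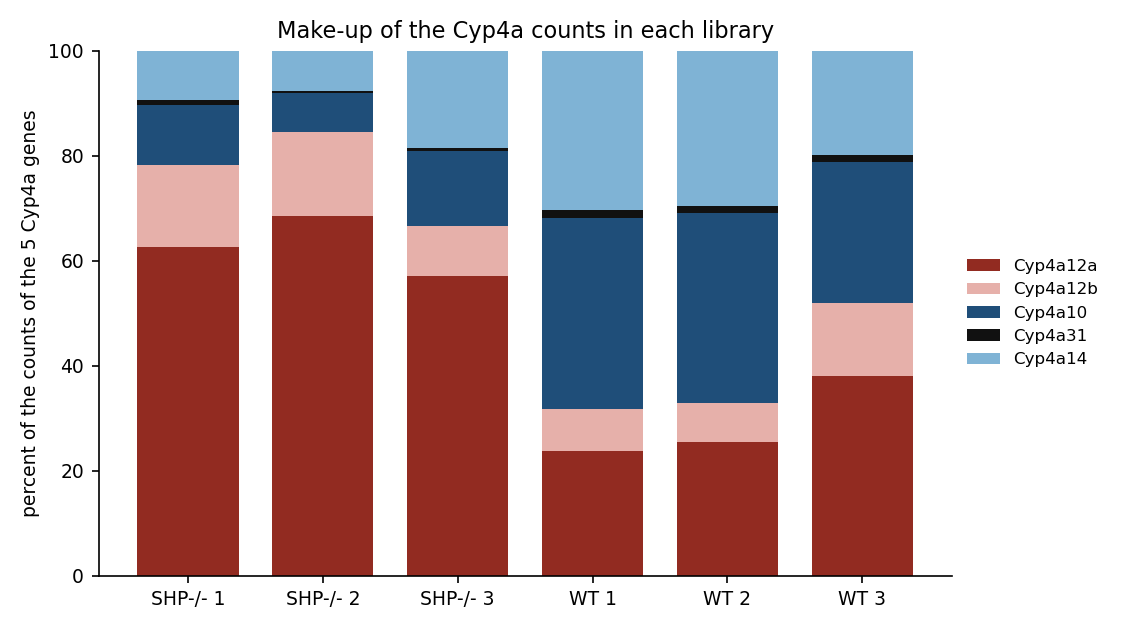
Share of the counts of the 5 Cyp4a members that each gene took, in percent, 1 bar per library with SHP-/- on the left. Cyp4a12a and Cyp4a12b (red shades) together take 66.7% to 84.5% of the bar in SHP-/- and 31.8% to 51.9% in WT.

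The Cyp4f members differed less between the groups, and none passed the threshold. Cyp4f14, a leukotriene hydroxylase and the most abundant Cyp4f member, had 239, 243 and 274 CPM in SHP-/- livers and 207, 235 and 189 CPM in WT livers. The groups did not overlap, though by a small margin, and the log2 difference was 0.27 ± 0.11 with a 95% interval of 0.03 to 0.51 (adjusted p = 0.12). Cyp4f13 had 66.7, 67.0 and 66.1 CPM in SHP-/- and 50.3, 66.7 and 53.0 CPM in WT. WT 2 lay within the SHP-/- range, and the log2 difference was 0.25 ± 0.13 (95% interval −0.02 to 0.52, adjusted p = 0.201). Cyp4f15 had 130, 129 and 151 CPM in SHP-/- and 168, 137 and 164 CPM in WT, with overlap at WT 2. Its log2 difference was −0.19 ± 0.12 (95% interval −0.44 to 0.06, adjusted p = 0.291). None of the 3 passed under any of the 15 other settings. Their intervals leave out changes as large as that of Cyp4a12a in either direction.

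Cyp4v3, the mouse counterpart of human CYP4V2, a fatty acid hydroxylase mutated in the eye disease Bietti crystalline dystrophy, had 466, 461 and 430 CPM in SHP-/- livers. In WT livers it had 501, 594 and 641 CPM, all above the SHP-/- libraries. The means were 452 ± 19.1 CPM in SHP-/- and 579 ± 71.4 CPM in WT, a log2 difference of −0.35 ± 0.11 (adjusted p = 0.0461). The call was lost without SHP-/- 1, SHP-/- 2, SHP-/- 3, WT 2 or WT 3 (adjusted p = 0.0899, 0.105, 0.12, 0.109 and 0.188 in that order). The span of the gene overlaps that of Klkb1, which encodes plasma prekallikrein, on the same strand. Whether exons of these genes overlap was not examined. Along the Cyp4v3 transcript, 92.6% of the 36-base windows occur in no other gene. Klkb1 also fell, with 234 ± 20.0 CPM in SHP-/- and 329 ± 18.3 CPM in WT (log2 difference −0.49 ± 0.10, adjusted p = 0.00765). Cyp4v3 counts were 2.07, 2.09 and 1.67 times those of Klkb1 in SHP-/- and 1.62, 1.72 and 1.92 times in WT, so this ratio overlapped between the groups.

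**Figure D4:**
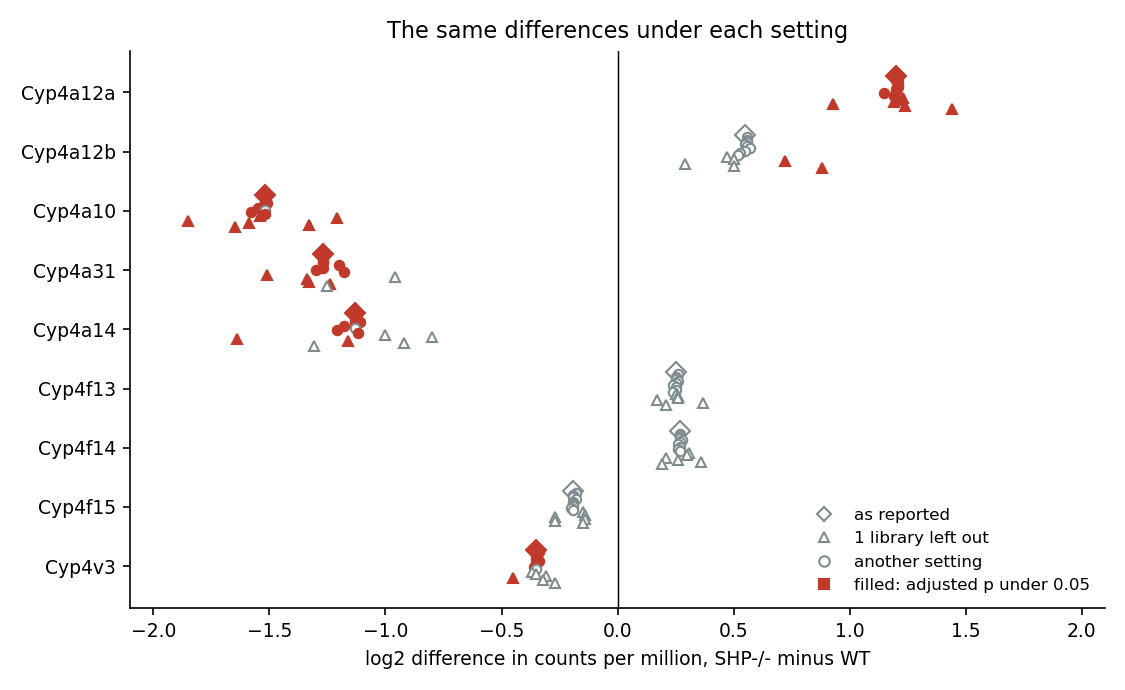
Log2 difference in CPM, SHP-/- minus WT, of each member as reported (diamonds), with 1 library left out (triangles) and under each other setting (circles), filled where the adjusted p was under 0.05. Cyp4a12a is filled throughout, Cyp4a14, Cyp4a31 and Cyp4v3 lose the fill under several settings, and no member crosses 0.

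The authors' deposited table holds a comparison of pooled groups that gave the same directions for all 9 members. It rests on the same 6 libraries, so these directions are not separate evidence. Its p-values come from a negative binomial test, not from the limma model. Log2 ratios of SHP-/- over WT in the authors' deposited table were −1.49 for Cyp4a10, 1.15 for Cyp4a12a, −1.05 for Cyp4a14 and −1.14 for Cyp4a31. Adjusted p-values in the authors' deposited table were 2.88e-19 for Cyp4a10, 7.84e-19 for Cyp4a12a, 1.06e-07 for Cyp4a14 and 0.00858 for Cyp4a31, and 0.115 for Cyp4v3. The authors' deposited table therefore has 4 of the 9 members under 0.05.

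Per kilobase of counted length, the order of the members differed between the genotypes. The length was not corrected for windows shared with other genes. The places of Cyp4a12a, Cyp4a12b, Cyp4a10 and Cyp4a31 in this order are therefore uncertain. In SHP-/- livers Cyp4a12a stood at 179 ± 4.90 CPM per kb and Cyp4v3 at 171 ± 7.25, with overlapping libraries. Cyp4f14 followed at 115 ± 8.60, then Cyp4f15 at 64.7 ± 5.94, and each was separate from the next gene down. Cyp4a12b (39.2 ± 6.84), Cyp4a10 (37.3 ± 15), Cyp4a14 (32.9 ± 19.8) and Cyp4f13 (20.0 ± 0.141 CPM per kb) came next. Of these, Cyp4a12b and Cyp4a10 overlapped, as did Cyp4a10 and Cyp4a14, and Cyp4a14 overlapped Cyp4f13. Cyp4a31 was lowest at 1.70 ± 0.765 CPM per kb. In WT livers Cyp4v3 stood first at 219 ± 27.1 CPM per kb and separate from the rest. Cyp4a10 (105 ± 25.8), Cyp4f14 (95.7 ± 10.7), Cyp4a12a (81.0 ± 27.1), Cyp4f15 (74.0 ± 7.92) and Cyp4a14 (68.3 ± 18.7 CPM per kb) followed, each overlapping the next. Cyp4a12b at 27.4 ± 11.1 and Cyp4f13 at 17.0 ± 2.64 CPM per kb overlapped, and Cyp4a31 was again lowest at 3.84 ± 0.242.

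Of 12 other CYP4 genes, 7 carried counts and 2 were abundant enough to test, and neither passed. Cyp4b1, which hydroxylates fatty acids and some xenobiotics, had 17.8 ± 5.20 CPM in SHP-/- and 18.2 ± 0.938 CPM in WT (log2 difference −0.01 ± 0.21, adjusted p = 0.983). Cyp4f39 had 6, 8 and 4 counts in SHP-/- and 2, 3 and 1 counts in WT. Cyp4f16 had 8, 4 and 13 counts in SHP-/- and 7, 3 and 4 counts in WT, and Cyp4f18, Cyp4f41-ps and Gm9705 had at most 4 counts in any library. These numbers are too small to show a difference at this depth.

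Genes whose level over the 6 libraries ran most like that of a member were found among 9528 genes with a mean of at least 5 CPM, by the root mean square difference of centred log2 CPM. Nearest to Cyp4a10 were Gsta2 (0.24), Bdh2 (0.26) and Cyp4a14 (0.27). Nearest to Cyp4a14 were Bdh2 (0.20), Taf7 (0.24) and Cyp4a10 (0.27). For Cyp4a12a they were St3gal4 (0.16), Smo (0.19) and Anapc11 (0.20), with Cyp4a12b in place 115 (0.37). Near Cyp4v3 were Dopey1 (0.04) and Dcaf6 (0.05). The profiles include the difference between genotypes, so this likeness is a description with no test. Bdh2, a short-chain dehydrogenase, had 6.97 ± 3.61 CPM in SHP-/- and 14.2 ± 2.06 CPM in WT.

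The gene of PPARA itself did not pass the threshold, and more genes in a list of PPARA and its targets fell than rose. Ppara had 262 ± 50.3 CPM in SHP-/- livers and 286 ± 35.9 CPM in WT livers (log2 difference −0.14 ± 0.14, adjusted p = 0.55). Of the 33 tested genes in that list, 2 rose, 8 fell and 23 did not pass, with a median log2 difference of −0.10. Across all genes tested, 7.58% rose and 6.94% fell. Fabp1, the liver fatty acid-binding protein, had 1780 ± 233 CPM in SHP-/- and 3880 ± 506 CPM in WT (log2 difference −1.13 ± 0.12, adjusted p = 0.000118). Decr1, an auxiliary enzyme of beta-oxidation, fell by 0.67 ± 0.10 on the log2 scale (adjusted p = 0.00121), and Pdk4, the kinase that shuts off pyruvate dehydrogenase, fell by 1.16 ± 0.23 (adjusted p = 0.00508). Cpt1a, which admits fatty acids to mitochondria, moved the other way, with 476 ± 37.4 CPM in SHP-/- and 327 ± 23.5 CPM in WT (log2 difference 0.54 ± 0.10, adjusted p = 0.00433). The other gene that rose was Rxra, which encodes the dimer partner of PPARA rather than a target (log2 difference 0.44, adjusted p = 0.0146). The number that fell was 5 without SHP-/- 1 and 4 without SHP-/- 2, WT 2 or WT 3, and Rxra did not pass without SHP-/- 1 or WT 3, which left 1 that rose.

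**Figure D5:**
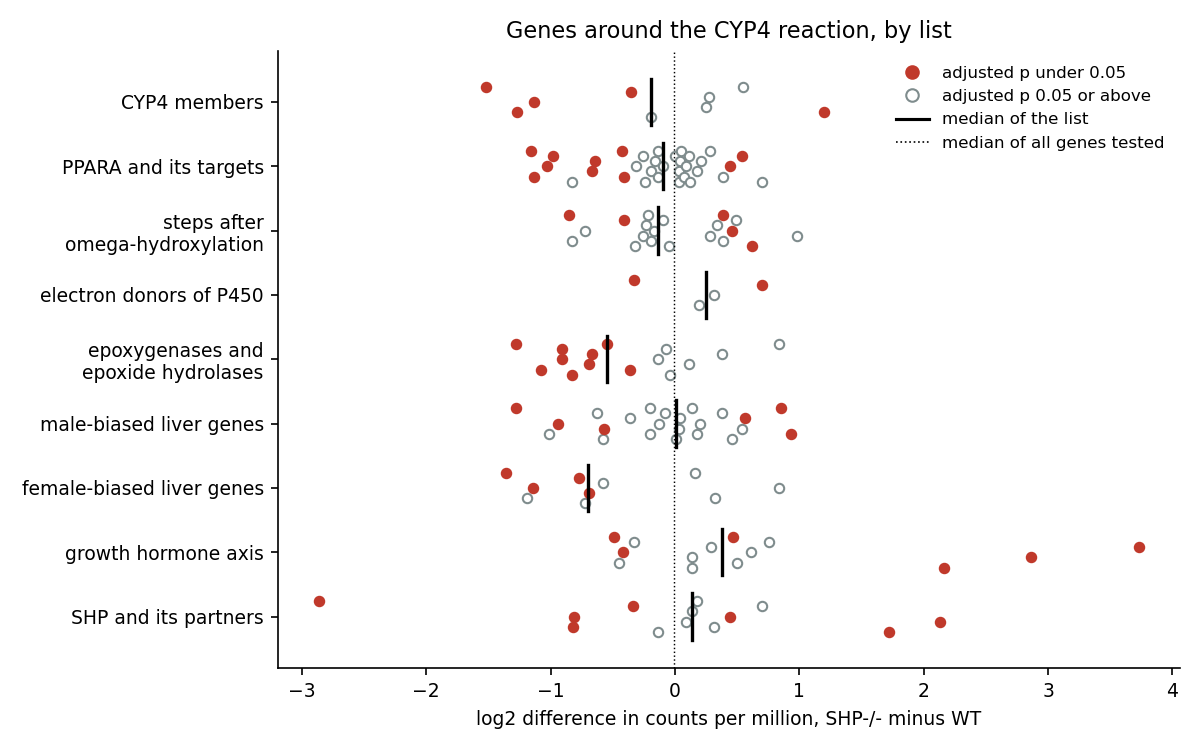
Log2 difference in CPM, SHP-/- minus WT, of each tested gene in 9 lists, filled where the adjusted p was under 0.05, with a bar at the median of the list and a dotted line at the median of all genes tested (−0.01). The medians are −0.55 for epoxygenases and epoxide hydrolases and −0.70 for female-biased genes, against −0.19 for the CYP4 members.

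Enzymes that act after omega-hydroxylation were mostly not past the threshold. Of 20 tested genes of oxidation to the dicarboxylic acid, peroxisomal import and shortening, 3 rose, 2 fell and 15 did not pass (median log2 difference −0.14). These counts stand against 7.58% risen and 6.94% fallen among all genes tested. Aldh3a2, the fatty aldehyde dehydrogenase that completes the oxidation, had 210 ± 26.9 CPM in SHP-/- and 382 ± 80.9 CPM in WT (log2 difference −0.85 ± 0.14, adjusted p = 0.00211), and it passed under all 15 other settings. Ehhadh, a peroxisomal beta-oxidation enzyme, was the other gene that fell. Those that rose were Adh4 and Aldh2, an alcohol and an aldehyde dehydrogenase, and Crat, which makes carnitine esters. They had log2 differences of 0.46 ± 0.11, 0.39 ± 0.09 and 0.62 ± 0.18, in that order. None of these 3 passed without WT 3, where the count that rose was 0, and Crat did not pass without SHP-/- 1, SHP-/- 3 or WT 1 either. The count that rose was 5 without WT 2, and 1 gene fell without SHP-/- 1, SHP-/- 2, WT 2 or WT 3.

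Among 4 electron donors, Por, the reductase that supplies electrons to microsomal P450 enzymes, rose, with 431 ± 48.1 CPM in SHP-/- and 266 ± 39.3 CPM in WT (log2 difference 0.70 ± 0.12, adjusted p = 0.00296). Cyb5b, an outer mitochondrial membrane cytochrome b5, fell by 0.33 ± 0.10 on the log2 scale (adjusted p = 0.0361), a call lost when any library but SHP-/- 3 was left out. Cyb5, the microsomal cytochrome b5, and its reductase gene Cyb5r3 differed by 0.19 and 0.31 on the log2 scale (adjusted p = 0.248 for Cyb5 and 0.0947 for Cyb5r3). The median of these 4 genes was 0.25, and of all genes tested 7.58% rose and 6.94% fell.

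A list labelled epoxygenases and epoxide hydrolases took in P450 genes of the CYP2C, CYP2J, CYP2E and CYP2U families. Some of these enzymes, though not all, compete with CYP4 for arachidonic acid by making epoxides. The list showed 0 higher and 9 lower of 15 tested genes, with a median log2 difference of −0.55. Among all genes tested, 7.58% were higher and 6.94% lower. Cyp2c29 had 644 ± 99.4 CPM in SHP-/- and 1560 ± 150 CPM in WT (log2 difference −1.28 ± 0.12, adjusted p = 5e-05). Cyp2c50, Cyp2c44 and the epoxide hydrolase Ephx1 fell by 0.83, 0.69 and 0.91 on the log2 scale, and these 4 passed under all 15 other settings. Without SHP-/- 3, or with a stricter count filter, 1 gene of the list passed as higher. Several Cyp2c genes are close copies of each other, so single values there are uncertain as well.

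Because Cyp4a12a is male-biased and Cyp4a10 and Cyp4a14 are higher in female liver, sex-biased genes and the growth hormone axis, which sets this bias, were counted too. Of 23 tested male-biased genes, 3 rose, 3 fell and 17 did not pass (median log2 difference 0.01). Both shares are to be set beside the 7.58% risen and 6.94% fallen among all genes tested. Selenbp2, a selenium-binding protein, rose by 0.85 ± 0.15 on the log2 scale, while Slco1a1, an organic anion transporter, fell by 0.94 ± 0.11 and Mup20, a major urinary protein, by 1.28 ± 0.23, a call lost under robust variance moderation. The count that rose was 1 without SHP-/- 1 or WT 3 and 6 without SHP-/- 3, and 5 fell without WT 2. Of 10 tested female-biased genes, 0 rose and 4 fell (median −0.70), among them Cyp2a5, with 112 ± 8.83 CPM in SHP-/- and 295 ± 88.1 CPM in WT, and Fmo1, with 105 ± 15.3 CPM in SHP-/- and 180 ± 16.4 CPM in WT. The others, Fmo2 and Fmo4, had adjusted p-values of 0.0488 and 0.049, and 2 genes fell without SHP-/- 2, SHP-/- 3, WT 1 or WT 3, or with scaling to total counts, while 1 rose without SHP-/- 3. All libraries were from males.

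Of 14 tested genes of the growth hormone axis, 4 rose and 2 fell (median 0.38), against 7.58% and 6.94% of all genes tested. Cish, a feedback inhibitor of growth hormone signalling, had 279, 429 and 283 counts in SHP-/- and 68, 6 and 26 counts in WT (log2 difference 3.73 ± 0.58, adjusted p = 0.00137). Socs3, another inhibitor of cytokine signalling, and Onecut1, a liver transcription factor, had log2 differences of 2.86 ± 0.49 and 2.16 ± 0.28. The receptor Ghr fell by 0.49 ± 0.10 on the log2 scale (adjusted p = 0.00523), and Stat5b, the transcription factor downstream of it, had a log2 difference of 0.29 (adjusted p = 0.107). The log2 difference of Cish was 4.49 without WT 1 and 3.06 without WT 2, and that of Socs3 was 3.54 without WT 1. Cish and Socs3 did not pass under robust variance moderation, and 1 gene fell without WT 3.

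Of 13 tested genes of SHP and its partners, 3 rose and 4 fell (median 0.14), against 7.58% and 6.94% of all genes tested. Cyp8b1 and Cyp7a1, bile acid synthesis enzymes long known to be repressed through SHP, had log2 differences of 1.72 ± 0.12 and 2.13 ± 0.20. Nr1i3 and Pparg, nuclear receptors, fell by 0.82 ± 0.16 and 2.86 ± 0.64 on the log2 scale, and Hnf4a, the hepatocyte nuclear receptor, had a difference of 0.14 (adjusted p = 0.371). Pparg had 1, 8 and 14 counts in SHP-/- and 36, 64 and 48 counts in WT, and its log2 difference was −2.20 without SHP-/- 1 and −3.47 without SHP-/- 3. The count that fell was 2 without SHP-/- 1, SHP-/- 2 or WT 2 and 1 without WT 1 or WT 3. It was 2 with scaling to total counts or with no count filter, and 5 rose with the stricter filter. Pparg was below the count filter, and so not tested, without WT 1 or WT 3 and with the stricter filter. It passed the threshold under all 12 other settings that tested it. Pparg cleared the count filter mainly through the WT libraries, where it was higher.

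Genes within 500 kb of the members were mostly not past the threshold, as were most genes tested, of which 7.58% rose and 6.94% fell. Around the Cyp4a cluster 11 neighbours were tested, of which 1 fell, Cmpk1, a nucleotide kinase (log2 difference −0.51 ± 0.13, adjusted p = 0.0184, lost without SHP-/- 2, WT 2 or WT 3). Around the Cyp4f genes 15 were tested, with Pglyrp2, a peptidoglycan-binding protein, higher by 0.86 ± 0.12 on the log2 scale (adjusted p = 0.00063) and Zfp871 lower, with a log2 difference of −0.51 (adjusted p = 0.0272, lost without SHP-/- 1, SHP-/- 2, WT 1 or WT 3). Without SHP-/- 3, 2 genes fell there. Around Cyp4v3, 3 of 7 fell, namely Sorbs2, Klkb1 and AC116747.2, the last of which lost its call (adjusted p = 0.0487) when any 1 library was left out.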

How the data were processed

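Counts per gene and library were used as the authors deposited them. Per the submitters' processing notes, the aligner was Novoalign 2.05.33 and the genome build mm9. No source used here gives the counting tool, gene annotation, use of strand or treatment of reads with several matches. Of counts from 1 to 19, 61.8% were even, as when both mates of a pair are counted. The deposited table also holds RPKM and a log2 ratio of pooled groups, and p-values as a score, the negative log10 times 10, per the file headers and values. Of its rows, 13901 carried no counts and were left out.

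Counts were scaled by trimmed mean of M-values (factors 0.966 to 1.03) and tested with limma voom 3.58.1 in R 4.3.3, genotype as the only term and all 6 libraries in the fit, with Benjamini-Hochberg adjustment over the 11794 genes that had at least 1.83 CPM in 3 libraries and 15 counts in total. The count models of other packages were not used, because 4840 lines of the table end early and its columns were therefore not recorded as counts. All rows used held whole numbers for all 6 libraries, so the values themselves did not bar such models. CPM are counts per 1000000 after scaling, values are mean ± SD over 3 libraries, and log2 differences carry their SE. The fit was run on simulated counts with known changes and the same dispersion for every gene. That run checked the code and does not bear on the calls of single members. The series' design gives 3 mice per group, so the p-values measure spread between animals. Replicate pairs differed by more than sampling noise (chi-square per degree of freedom 5.44 to 9.87). Sequences were compared in Python 3.11.15 with Biopython 1.88, and figures drawn with matplotlib 3.10.9. RefSeq promoter sequences matched 4 of the 9 members and are not shown.

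The members and lists were chosen with earlier results of these data known. Genes named are all members, the other CYP4 genes with counts, Nr0b2, up to 4 called genes and 2 abundant uncalled genes of each list, called neighbours, and up to 3 nearest profiles, and some genes under this rule are not reported here. Genes named outside this rule, chosen after their values were seen, are Ehhadh, Rxra as the other PPARA-list gene that rose, and the kidney markers without counts. Alternatives were other scalings, count filters, limma trend, robust variance moderation, sample quality weights, a replicate block, summed copies and leaving out each library.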

Additional observations from a re-analysis of the deposited data

How the results depend on the processing

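With 3 libraries a group, single libraries decided several calls. The number of genes past the threshold was 353 to 818 higher and 276 to 783 lower when 1 library was left out, against 894 and 819 with all 6. The CYP4 members past it were 1 to 2 higher and 1 to 4 lower when 1 library was left out, and 2 lower under robust variance moderation. Genes past it in the other lists, 53 with all libraries, were 30 to 54 when 1 library was left out and 50 to 57 under the other settings. The summed Cyp4a12a and Cyp4a12b kept their direction and call throughout, with log2 differences of 0.80 to 1.32 when 1 library was left out, as did the summed Cyp4a10, Cyp4a31 and Cyp4a32, with −1.49 to −1.01.

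Log2 differences near 0 changed sign. For Cyp4a32 it was 0.03, 0.07, 0.01 and 0.00 without SHP-/- 2, SHP-/- 3, WT 2 and WT 3, within a range of −0.14 to 0.07 over the 6 libraries. For Cyp4b1 it was 0.19, 0.01, 0.01 and 0.02 without SHP-/- 1, SHP-/- 2, WT 1 and WT 2, and 0.00 with the replicate block, within −0.26 to 0.19. For Ppara it was 0.04 without SHP-/- 2, within −0.23 to 0.04. Among abundant uncalled genes of the lists, Scp2 gave 0.07 and 0.03 (within −0.14 to 0.07), Cyp2e1 0.00 and 0.01 (within −0.17 to 0.01) and Cyp2c70 0.11 and 0.07 (within −0.17 to 0.11), each pair from leaving out 1 or another library. The cause was not tested.

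Replicate numbers did not pair the samples: the deviations of same-numbered libraries correlated at −0.0187, −0.021 and −0.0244. With the replicate block, 936 genes passed as higher and 843 as lower, Cyp4v3 did not pass (adjusted p = 0.0504), and the other members kept their side of the threshold. Cyp4a31 had too few counts for the stricter filter. The median log2 difference of all genes lay between −0.01 and 0.01 under every setting, and depth limits what can be said of Cyp4a31 and of the untested CYP4 genes.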
